A study of Mus musculus with 2 samples.

Results

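A set of 10 genes of Wnt signalling and of liver zonation, out of the 43346 genes measured, were followed in fetal mouse liver: Wnt2, Wnt9b, Rspo3, Lgr5, Znrf3, Ctnnb1, Axin2, Lef1, Glul and Tbx3. They were picked by symbol, through the gene identifiers of the deposited tables and the GENCODE annotation of the mouse genome build GRCm38, and all 10 had a row in both libraries. The study sequenced total RNA longer than 200 nt from whole liver of healthy B6NCrl mouse embryos at embryonic day 15.5. Its 2 libraries are biological replicates of 1 group: replicate 1 pooled the livers of 78 embryos and replicate 2 those of 62, with males and females mixed in both pools, and 10 ng of RNA with added spike-in RNAs went into each. No treated, mutant or control group and no other age was included, so the data give levels, their order, the make-up of each gene's transcripts and the spread between the 2 pools. A pool averages over embryos and over all cell types of the organ, so neither the variation between embryos nor the place of a transcript in the liver lobule was measured.

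In canonical Wnt signalling a secreted Wnt protein binds a Frizzled receptor and an LRP co-receptor, the complex that marks beta-catenin for destruction is halted, and beta-catenin enters the nucleus, where it works with TCF and LEF proteins. R-spondins strengthen the signal by binding LGR receptors and removing the ligases ZNRF3 and RNF43, which otherwise clear Frizzled from the cell surface. In the adult liver, endothelial cells near the central vein are known to send Wnt and R-spondin signals that maintain pericentral hepatocyte genes such as Glul, while genes of the urea cycle and gluconeogenesis are highest around the portal vein. In the fetus the same pathway is known for its part in the growth of hepatoblasts, the precursors of hepatocytes and bile duct cells.

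The 10 genes fell into an abundant pair, 4 genes of low level, and 4 genes with a mean below the detection limit of 1 TPM. By the authors' posterior mean TPM, 2 of these 4, Lef1 and Lgr5, had means of 1.02 and 1.04. Levels are in TPM, an abundance that allows for both transcript length and library size, computed here over genes without the spike-ins and given as mean ± SD over the 2 libraries (n = 2). Glul stood at 113 ± 8.03 TPM and Ctnnb1 at 72.4 ± 2.90 TPM, and this pair held 94.6% of the summed TPM of the 10 genes in replicate 1 and 94.5% in replicate 2. Znrf3, Tbx3, Rspo3 and Wnt2 lay between 1.79 and 2.67 TPM, Lef1 and Lgr5 just below 1 TPM, and Axin2 and Wnt9b far below. At 1 TPM or more in both libraries, 6 of the 10 were detected, beside 28.4% of all genes and 53.1% of the 21474 protein-coding genes. For a set of protein-coding genes that share is near the background. The same 53.1% is the share to set beside the counts of detected genes in the lists below. The median of the 10 means was 1.94 TPM, whereas the median over all detected genes was 10.8 TPM. In bulk tissue, a low level through few expressing cells and a low level through little RNA per cell cannot be told apart.

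**Figure D1:**
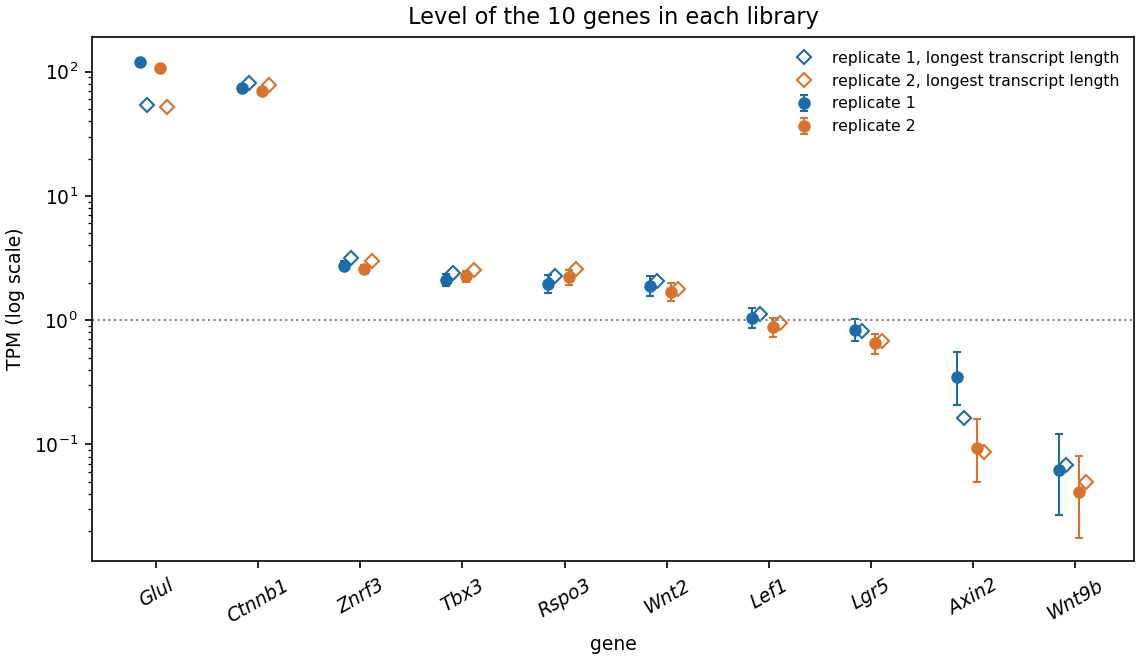
Level of each of the 10 genes in TPM on a log scale, with replicate 1 in blue and replicate 2 in orange. Filled circles are TPM with the exact 95% counting interval, open diamonds the level computed with the length of the gene's longest transcript, and the dotted line marks 1 TPM. Glul and Ctnnb1 stand far above the rest, and the diamonds of Glul lie below those of Ctnnb1.

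Depth was 34039426 expected counts in genes for replicate 1 and 44200838 for replicate 2. The tissue label was checked against cell type markers. All 15 hepatoblast and hepatocyte markers and all 12 erythroid markers were detected in both libraries. So were 15 of 16 endothelial, 13 of 13 stellate and mesenchymal, 7 of 7 mesothelial, 7 of 10 B lymphoid, 2 of 10 T and NK lymphoid, 10 of 10 macrophage and 6 of 17 neighbouring organ markers. Among the last, 7 were at 1 TPM or more in either library. More than 2-fold lower in replicate 2 were 3 of the 7, beside 1.37% of all genes tested in this way. These were the pancreatic enzyme genes Ctrb1 at 30.1 and 2.73 TPM, Cpa1 at 7.85 and 1.61 TPM and Prss1 at 3.54 and 0.413 TPM. Cela1, another enzyme gene on that list, was 14.45 and 10.05 TPM, within 2-fold. These enzyme genes were named after their values were seen. The actin genes of striated muscle were higher in replicate 2, with Acta1 at 96.1 and 147 TPM and Actc1 at 58.2 and 90.2 TPM. The part of neighbouring tissue in the levels of the 10 genes was not tested.

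Replicate 2 was then compared with replicate 1. Of the 7 genes at 1 TPM or more in either library, 5 were lower in replicate 2 by TPM, beside 61.3% of the 13066 genes tested in the same way, which is near that background. A difference of more than 2-fold was found for 0 of the 7, beside 2.92% of all genes tested, of which 1.55% were higher and 1.37% lower in replicate 2. The ratio of expected counts, scaled by the library totals, was given an exact 95% interval (Clopper-Pearson). It left out 1 for 0 of the 7, beside 41.3% of all genes tested, with 19.7% above 1 and 21.6% below. The interval narrows as counts rise, and Lef1, Wnt2, Rspo3, Tbx3 and Znrf3 had between 107 and 675 counts. The 41.3% was not limited to genes of like counts. That interval covers counting error only, and reads without molecular identifiers are not independent molecules. A single library stood on each side, so no p-value was computed. The interval also depends on how the libraries are scaled. With the counts of the spike-in RNAs as the scale, the interval lay above 1 for 4 of the 7 genes, beside 46.5% of all genes tested on that scale, so this count too is near the background. The 4 were Ctnnb1 at 1.10 (1.06 to 1.13), Glul at 1.10 (1.05 to 1.15), Tbx3 at 1.23 (1.06 to 1.43) and Rspo3 at 1.30 (1.05 to 1.62). The spike-in scale moved all genes by 0.146 on the log2 scale against the library total.

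**Figure D2:**
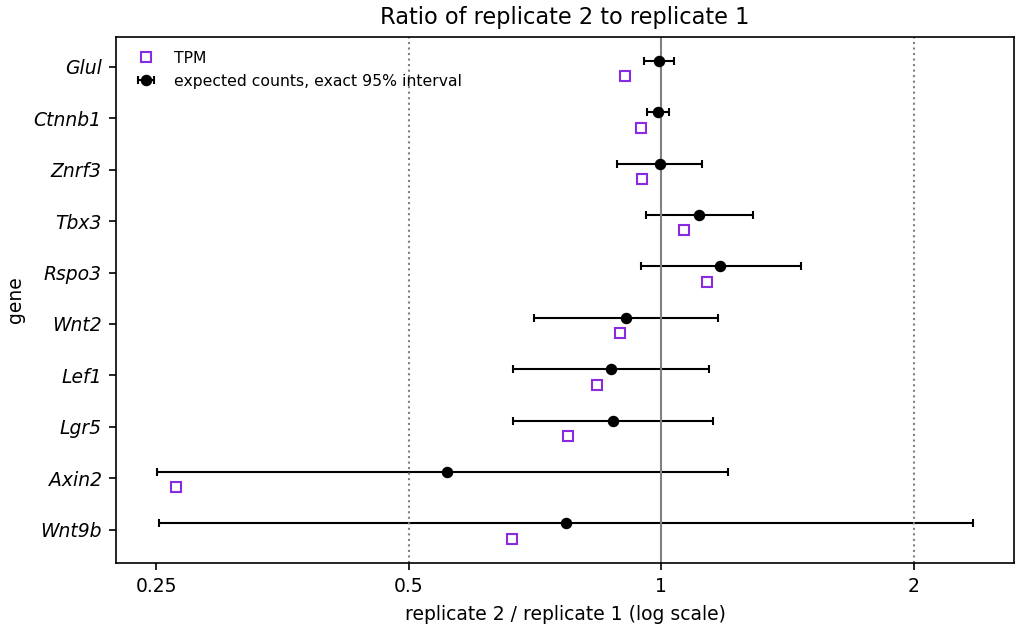
Ratio of replicate 2 to replicate 1 for each gene on a log scale. Black circles are ratios of expected counts scaled by library totals with their exact 95% intervals, open squares are ratios of TPM, and dotted lines mark 2-fold. Every interval crosses 1, and the square of Axin2 lies at 0.264, outside the 2-fold lines.

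Among the ligands, Wnt2 was the highest of the 19 Wnt genes and the one detected. Wnt2 (ENSMUSG00000010797; GRCm38 chromosome 6, 17988940 to 18030585, minus strand) is known as a Wnt of liver endothelial cells. It was 1.90 TPM in replicate 1 and 1.69 TPM in replicate 2, from 118 and 139 expected counts. The ratio of counts was 0.907 (0.705 to 1.17), so the libraries did not differ beyond counting error. Wnt2 held 44.6% ± 3.41 (SD, n = 2) of the summed TPM of all Wnt genes. Next by TPM came Wnt11, a ligand best known for signalling without beta-catenin, at 0.574 ± 0.0205 TPM. With the longest transcript as length, Wnt11 was 0.335 and 0.315 TPM. Wnt5b, named after its values were seen, was then 0.412 and 0.293 TPM, so the place of Wnt11 depends on length.

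Wnt9b, a ligand known from central vein endothelium and kidney (ENSMUSG00000018486; GRCm38 chromosome 11, 103727364 to 103749821, minus strand), was the lowest of the 10 genes. It had 8 expected counts in each library, or 0.0622 TPM in replicate 1 and 0.0413 TPM in replicate 2. Counting intervals were 0.0268 to 0.123 TPM and 0.0178 to 0.0814 TPM, so the 2 values could not be told apart at this depth. Wnt9b ranked 11 among the 19 Wnt genes with 1.26% ± 0.167 (SD, n = 2) of their TPM. Wnt2 was 30.5 times Wnt9b in replicate 1 and 41.0 times in replicate 2 by TPM. The Wnt genes with 0 counts in both libraries were Wnt1, Wnt3, Wnt8a and Wnt10a, of which Wnt1 falls under the rule for named genes and the others were named after their values were seen. A count of 0 allows up to 0.0881 CPM in replicate 1 and 0.0679 CPM in replicate 2, by the limit of 3 counts of the library total. For the release of Wnt proteins, the carrier gene Wls was 5.24 and 5.55 TPM, and Porcn, whose enzyme adds the lipid to Wnts, was 1.05 and 0.774 TPM.

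Rspo3 (ENSMUSG00000019880; GRCm38 chromosome 10, 29452416 to 29535867, minus strand), the R-spondin known from central vein endothelium and mesenchyme, was 1.96 TPM in replicate 1 and 2.22 TPM in replicate 2. The counts were 140 and 214, with a ratio of 1.18 (0.947 to 1.47). Rspo3 was the highest of the 4 R-spondins and the only one detected, with 76.6% ± 3.49 (SD, n = 2) of their TPM. Against the sum of the other R-spondins it was 3.78-fold higher in replicate 1 and 2.87-fold higher in replicate 2. Of those, Rspo1 had 22 and 45 counts, and its interval of 0.926 to 2.76 held 1. Rspo2, named after its values were seen, had 4 and 18 counts with a ratio of 3.47 (1.14 to 14.1), at levels below 1 TPM. Endothelial markers summed to 174 and 149 TPM, with 15 of 15 tested markers lower in replicate 2, beside the 61.3% of all genes. The interval lay below 1 for 8 of the 15, beside 21.6% of all genes, and the 1 marker below 1 TPM in both libraries, Cdh13, was 0.404 and 0.526 TPM. Mesothelial markers summed to 20.9 and 20.6 TPM, with 4 of 7 higher in replicate 2. Their interval lay above 1 for 3 of the 7, beside 19.7% of all genes, and below 1 for 1. Stellate and mesenchymal markers summed to 314 and 305 TPM, with 11 of 13 lower in replicate 2. Of these 13, the interval lay below 1 for 3 and above 1 for 2. By counts scaled to the library totals, Wnt2 was lower and Rspo3 higher in replicate 2, neither beyond counting error. On the spike-in scale Wnt2 was at 1.00 (0.78 to 1.29) and Rspo3 at 1.30 (1.05 to 1.62), so the Rspo3 interval then left out 1. The part of endothelial, mesothelial, stellate and mesenchymal cells in either value was not tested.

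**Figure D3:**
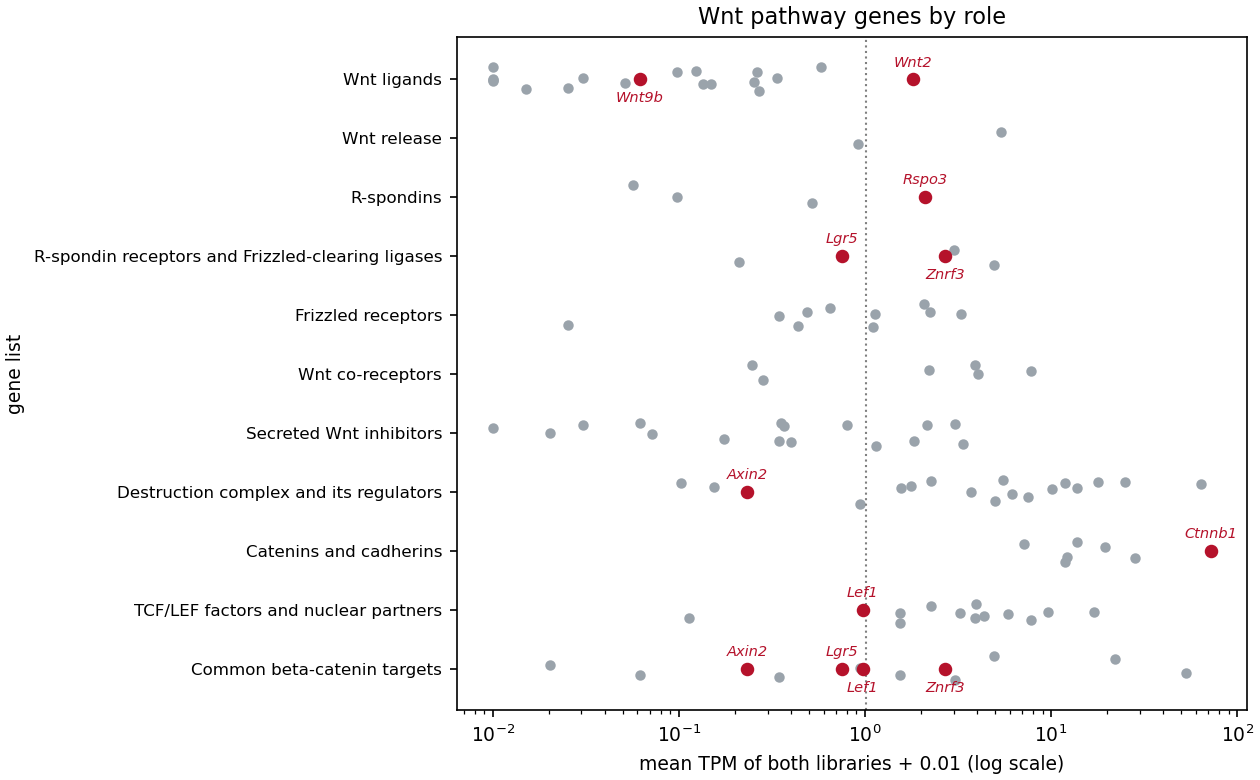
Mean TPM of both libraries plus 0.01 on a log scale for every gene of 11 Wnt pathway lists, with the 8 of the 10 genes that these lists hold in red and the dotted line at 1 TPM. Wnt2, Rspo3 and Ctnnb1 are the highest genes of their lists, whereas Axin2 lies in the lower part of its lists. Lef1 ranks 12 of 13 among the nuclear factors and 7 of 13 among the targets, and Wnt9b ranks 11 of 19 Wnt genes.

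On the receiving side, Lgr5 was lower than its relative Lgr4. Lgr5 (ENSMUSG00000020140; GRCm38 chromosome 10, 115450311 to 115587780, minus strand), an R-spondin receptor known as a stem cell and pericentral marker, was 0.839 TPM in replicate 1 and 0.650 TPM in replicate 2, from 102 and 116 counts. The ratio of counts was 0.876 (0.665 to 1.15). Lgr4, the more widely expressed receptor of the family, was 3.21 and 2.77 TPM, or 3.83 times and 4.25 times Lgr5. Lgr6 was at 0.202 ± 0.0517 TPM.

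Znrf3 (ENSMUSG00000041961; GRCm38 chromosome 11, 5276324 to 5444847, minus strand), whose ligase clears Frizzled and whose gene is itself a Wnt target, was 2.75 TPM in replicate 1 and 2.60 TPM in replicate 2. Its 522 and 675 counts gave a ratio of 0.996 (0.887 to 1.12), and the libraries were close together. The partner ligase gene Rnf43 was 5.19 and 4.70 TPM. By TPM, Rnf43 was 1.89 times Znrf3 in replicate 1 and 1.81 times in replicate 2. Without correction for length the counts of the pair were nearly equal, with ratios of 1.03 and 0.957.

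Receptors for Wnt stood at low levels. Over all protein-coding genes, 53.1% were detected by the rule used here. Of 10 Frizzled genes, 5 were detected, led by Fzd1 at 3.27 ± 0.110 TPM and Fzd4 at 2.23 ± 0.430 TPM. Fzd5, Fzd6 and Fzd7, named after their values were seen, lay between 1.0 and 2.14 TPM in the single libraries. Of 6 co-receptors 4 were detected, with the pseudokinase gene Ptk7 at 7.76 ± 0.831 TPM as the highest. Ryk at 4.03 ± 0.646 TPM and Lrp6 at 3.88 ± 0.0416 TPM overlapped between libraries. Lrp6 and Lrp5, the other gene detected, were named after their values were seen. Of 16 Wnt inhibitors, 4 were detected. Sfrp1, a Frizzled-like Wnt-binding protein, was at 3.34 ± 0.0521 TPM. Its relative Sfrp2 was 2.25 TPM in replicate 1 and 3.83 TPM in replicate 2, with an interval of the count ratio of 1.44 to 2.19.

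Ctnnb1 (ENSMUSG00000006932; GRCm38 chromosome 9, 120929216 to 120960507, plus strand) encodes beta-catenin, which carries the Wnt signal and also joins cadherins to the cytoskeleton. It was 74.5 TPM in replicate 1 and 70.4 TPM in replicate 2, from 7652 and 9841 expected counts. The ratio of counts was 0.990 (0.961 to 1.02), the narrowest interval of the 10 genes. Ctnnb1 was above 93.7% of protein-coding genes. It was also the highest of the 7 catenins and cadherins, all of which were detected, with 43.9% ± 1.06 (SD, n = 2) of their TPM. Alpha-catenin, encoded by Ctnna1, was next at 28.1 ± 1.66 TPM, and E-cadherin, encoded by Cdh1, was at 19.6 ± 2.81 TPM.

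Ctnnb1 RNA was divided between a pair of full-length transcripts that begin 172 nt apart. The one of 3422 nt runs from 120933572 to 120959780 and held 64.5% of the gene's TPM in replicate 1 and 55.4% in replicate 2. The one of 3623 nt runs from 120933400 to 120960507 and held 31.3% and 41.1%. The order of the pair was the same in both libraries, and the other 12 annotated transcripts took the small remainder. The transcripts overlap over most of their length, so these shares rest on the authors' division of shared reads. The pair also differs at the 3′ end, so the shares do not measure the use of either start. RefSeq places starts at 120933400 and 120933578 on the plus strand. The 250 bases before the first start (chr9:120933150-120933399) and the 30 bases before the second (chr9:120933548-120933577) are shown to place these starts, in build GRCm38.p6, 5′ to 3′, in lower case.
Ctnnb1 first start: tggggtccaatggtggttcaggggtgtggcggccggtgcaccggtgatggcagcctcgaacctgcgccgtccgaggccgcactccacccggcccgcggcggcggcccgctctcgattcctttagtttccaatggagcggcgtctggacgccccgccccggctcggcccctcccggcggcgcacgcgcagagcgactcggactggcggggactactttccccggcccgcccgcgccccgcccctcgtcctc
Ctnnb1 second start: ggcggagacggagcacggtgggcgccgagc
The windows of 300 bases around these starts, 250 before and 50 after, had a GC content of 75.3% and 75%.

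Within the destruction complex, Axin2 was among the lowest genes and its relative Axin1 was not. Axin2 (ENSMUSG00000000142; GRCm38 chromosome 11, 108920349 to 108950783, plus strand), a scaffold of the complex and a widely used Wnt target, had 18 expected counts in replicate 1 and 13 in replicate 2. Its TPM was 0.352 and 0.0929, which is the one difference above 2-fold among the 10 genes when no filter on low values is used. The ratio of counts was 0.556 (0.251 to 1.2), so the difference did not exceed counting error. In replicate 1 a short transcript of 477 nt had 2.02 counts and gave 0.176 of the 0.352 TPM, and in replicate 2 it had 0 counts. The full transcript of 4260 nt had 9.02 and 10.2 counts. With the length of the longest transcript in place of the estimated mean length, Axin2 was 0.162 and 0.0867 TPM. Axin1 was 24.0 times Axin2 in replicate 1 and 70.6 times in replicate 2, a ratio of 47.3 ± 32.9 (SD, n = 2). By posterior mean TPM that ratio was 19.0. Axin2 ranked 16 of 18 genes of the complex and its regulators, of which 14 were detected. The kinase gene Csnk1a1 at 63.7 ± 0.552 TPM and the ubiquitin protease gene Usp7 at 24.8 ± 3.29 TPM led that list.

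Among the nuclear factors, Lef1 (ENSMUSG00000027985; GRCm38 chromosome 3, 131110471 to 131224356, plus strand), a DNA-binding partner of beta-catenin, was 1.05 TPM in replicate 1 and 0.877 TPM in replicate 2. It stood on either side of the 1 TPM limit, from 107 and 121 counts with a ratio of 0.871 (0.666 to 1.14). Its relative Tcf7l2 was 16.2 and 17.7 TPM, or 15.5 times and 20.1 times Lef1. Lef1 ranked 12 of 13 genes of this list, of which 11 were detected. Pygo2, a co-activator that binds through BCL9 proteins, was second at 9.62 ± 0.360 TPM. Lef1 is also known from early lymphocytes. B lymphoid markers summed to 54.3 TPM in replicate 1 and 41.7 TPM in replicate 2, with 7 of 10 detected. T and NK markers summed to 4.59 and 5.05 TPM, with 2 of 10 detected. These were Lck at 2.22 and 3.02 TPM and Gata3 at 1.04 and 1.01 TPM, while Cd3e and Cd8a had 0 counts in both libraries. The part of these cells in the Lef1 level was not tested.

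Common targets of beta-catenin did not stand at one level. Of 13 such genes, 6 were detected, beside 53.1% of protein-coding genes. Myc, a regulator of growth, at 53.2 ± 1.5 TPM and the cell cycle gene Ccnd1 at 22 ± 1.67 TPM were the highest. Both have many other regulators. Znrf3 ranked 5, Lef1 7, Lgr5 9 and Axin2 11 among the 13. The target Apcdd1 had 1 count in replicate 1 and 0 in replicate 2.

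Glul (ENSMUSG00000026473; GRCm38 chromosome 1, 153899944 to 153909723, plus strand) encodes glutamine synthetase, which binds ammonia into glutamine and marks pericentral hepatocytes in the adult. It was 119 TPM in replicate 1 and 108 TPM in replicate 2, above 96.1% of protein-coding genes. Its 3888 and 5018 expected counts gave a ratio of 0.994 (0.953 to 1.04). The libraries were close, but the level depended on which transcripts the counts were given to. A transcript model of 681 nt, whose 3′ end is not annotated, held 56.7% and 64.2% of the gene's TPM. The full transcript of 2792 nt held 24.7% and 26.4% of TPM. By expected counts the order was the reverse, with 63.4% and 63.9% for the full transcript and 31.5% and 33.6% for the model of 681 nt. Of the exon positions of the latter, 609 nt or 89.4% are also in the full transcript.

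The order of Glul and Ctnnb1 therefore turned with the scale. By TPM, Glul was 1.60 times Ctnnb1 in replicate 1 and 1.53 times in replicate 2. With the longest transcript of each gene as its length, Glul was at 52.9 ± 1.69 TPM and Ctnnb1 at 79.4 ± 2.74 TPM, a ratio of 0.666 ± 0.00171 (SD, n = 2). The order was the same in both libraries on each scale. Antisense to Glul lies Teddm2, with 48.4 and 64.1 counts. Whether counting used strand is not given in the sources used here, so reads from such a pair cannot be told apart.

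**Figure D4:**
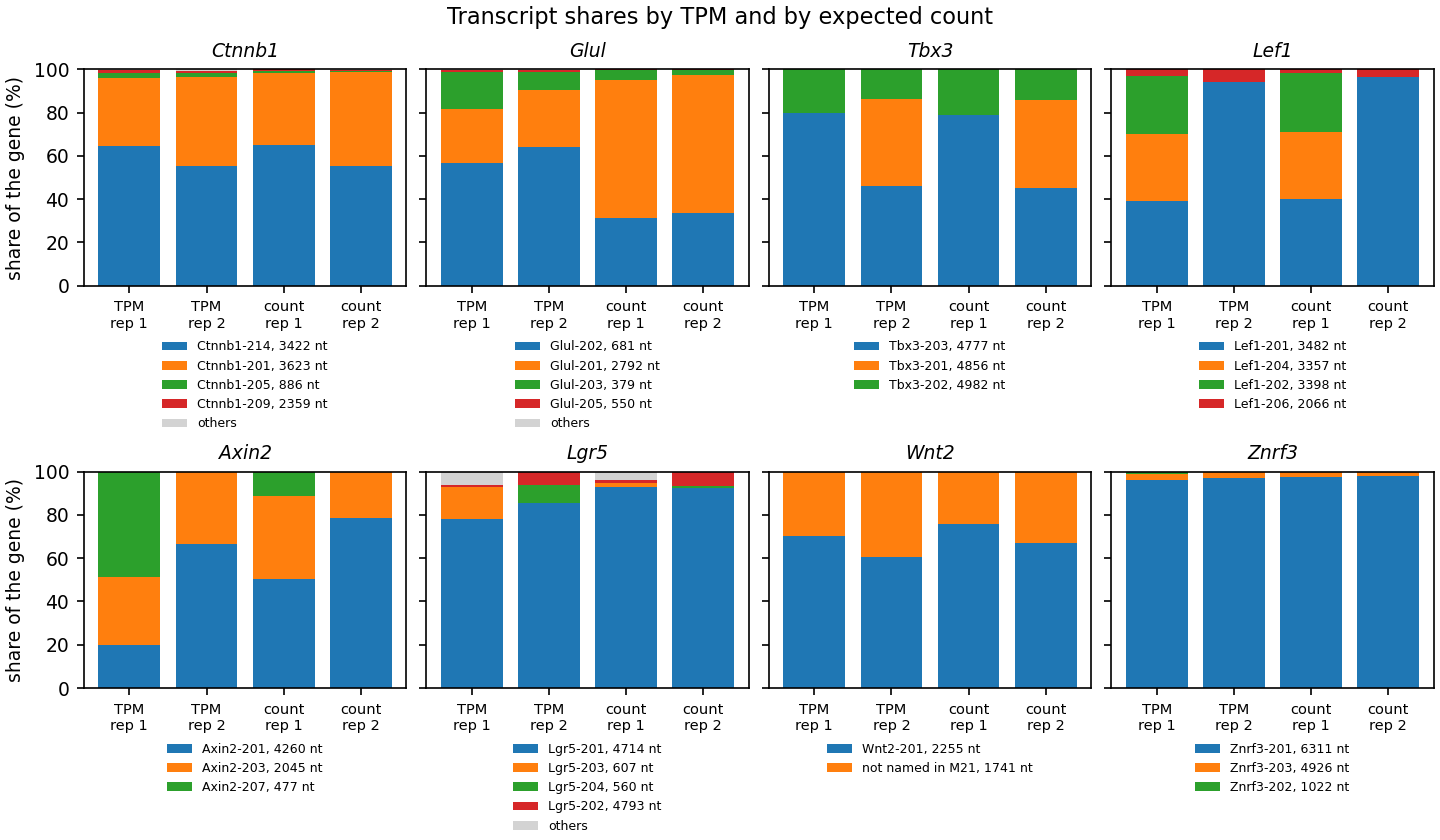
Share of each transcript in its gene, in percent, for the 8 genes with more than 1 annotated transcript. The first pair of bars in each panel gives shares of TPM in replicates 1 and 2, and the other pair shares of expected counts. The Glul model of 681 nt takes 56.7% and 64.2% by TPM but 31.5% and 33.6% by counts, and the shares within Lef1 and Tbx3 differ widely between the replicates.

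Tbx3 (ENSMUSG00000018604; GRCm38 chromosome 5, 119670669 to 119684724, plus strand), a T-box repressor needed for hepatoblast growth and a pericentral gene, was 2.11 TPM in replicate 1 and 2.25 TPM in replicate 2. Its 310 and 447 counts gave a ratio of 1.11 (0.959 to 1.29). Tbx3 was the highest of 16 T-box genes and the one detected, with 47.8% ± 3.0 (SD, n = 2) of their TPM. The next, Tbx6, was at 0.595 ± 0.199 TPM. Transcript shares were unsteady: the form of 4777 nt had a share of 79.8% in replicate 1 and 45.9% in replicate 2. The form of 4856 nt had 0% and 40.4%. The latter shares 95.2% of its exon positions with the former.

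The same held for Lef1, whose transcript of 3482 nt had shares of 39.0% and 94.1% in replicates 1 and 2. The forms of 3357 nt and 3398 nt had shares of 31.0% and 27.0% in replicate 1 and 0% in replicate 2, and every exon position of both is also in the longer form. With 107 and 121 counts for the whole gene, such splits rest on few reads. Of the 8 genes with more than 1 transcript, 7 had the same leading transcript by TPM in both libraries, the exception being Axin2. The leading form of Lgr5 (4714 nt) had 78.1% and 85.5%, but 50.4% and 56.8% by posterior mean TPM. That of Znrf3 (6311 nt) had 95.9% and 97.2% of TPM, and that of Wnt2 (2255 nt) 70.3% and 60.4%.

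The full order of the 10 genes by mean TPM was Glul, Ctnnb1, Znrf3, Tbx3, Rspo3, Wnt2, Lef1, Lgr5, Axin2 and Wnt9b. The libraries of neighbours in this order overlapped for Tbx3 and Rspo3 only, whose means differed 1.05-fold. The widest step was the 27.1-fold gap from Ctnnb1 to Znrf3. From Lgr5 to Axin2 the step was 3.35-fold and from Axin2 to Wnt9b 4.30-fold. With 2 libraries, a lack of overlap is no test.

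Zonation genes of hepatocytes were detected in part on both sides of the adult pattern. Of 19 pericentral genes 12 were detected, beside 53.1% of all protein-coding genes, which is near that background. The list summed to 464 TPM in replicate 1 and 435 TPM in replicate 2. Rgn, a calcium-binding protein gene of hepatocytes, was the highest at 173 ± 5.38 TPM, and Glul was second with 25.2% ± 0.617 (SD, n = 2) of the sum. With the longest transcript as length, Glul was the fourth. Cyp2c29, an adult cytochrome P450 gene, had 0 counts in both libraries. Cyp2e1 at 0.870 and 0.413 TPM and Cyp1a2 at 0.145 and 0.134 TPM were not detected either. Both were named after their values were seen. Of 18 periportal genes 14 were detected, beside the same 53.1%, and this list summed to 1289 TPM in replicate 1 and 1065 TPM in replicate 2. Sdhd, a respiratory chain gene on that list, gave 287 and 263 TPM of these sums, and without it the sums were 1002 and 802 TPM. The gluconeogenesis genes Pck1, at 0.611 and 0.506 TPM, and G6pc, at 0.0311 and 0.0206 TPM, were not detected. G6pc was the lowest of the periportal list, and Pck1 was named after its values were seen.

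Most periportal genes were lower in replicate 2. The interval of the count ratio lay below 1 for 13 of 14 tested periportal genes (12 of 13 without Sdhd) and 5 of 13 tested pericentral genes, beside 21.6% of all genes. Their median log2 ratios of TPM were -0.40 and -0.15, beside -0.06 over all genes and -0.08 for the 7 tested members. More than 2-fold lower was 1 pericentral gene, the bile acid and drug transporter gene Slco1b2 at 5.96 and 2.91 TPM, and 0 periportal genes, beside 1.37% of all genes. Hepatoblast and hepatocyte markers were lower too, with 11 of 15 intervals below 1 and a median of -0.23. The part of hepatocyte content in these shifts was not tested, nor was the difference between the lists.

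Cps1, the first enzyme of the urea cycle and a periportal gene, was 27.4 TPM in replicate 1 and 13.7 TPM in replicate 2. Scaled by library totals, the ratio of its counts was 0.520 (0.496 to 0.544), while the interval of Glul held 1. Glul was thus 4.34 times Cps1 in replicate 1 and 7.84 times in replicate 2 by TPM, and with the longest transcripts as lengths 1.69 times and 3.24 times. By plain counts Glul was below Cps1 in replicate 1, at 0.835, and above it in replicate 2, at 1.60. The direction of this comparison therefore differs with the scale and with the library.

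**Figure D5:**
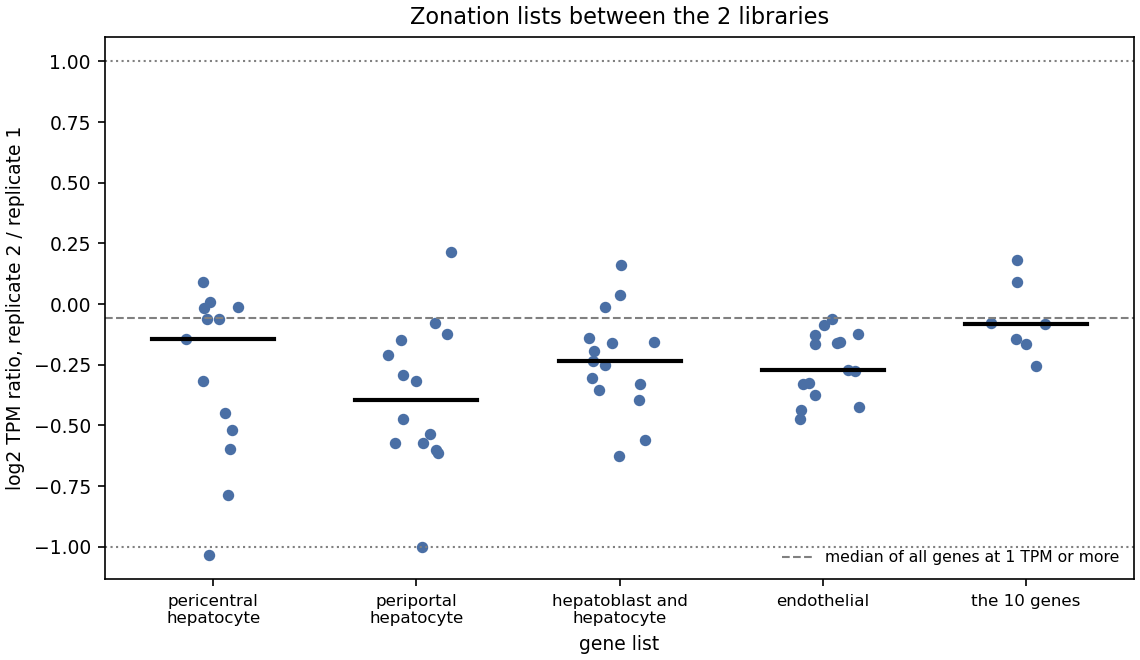
The log2 ratio of TPM in replicate 2 to replicate 1 for genes at 1 TPM or more in either library, by list. Points are genes, bars are list medians, the dashed line is the median of all genes tested and dotted lines mark 2-fold. The periportal median lies at -0.40 and the pericentral median at -0.15, and Slco1b2 is the pericentral point below the dotted line.

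Promoter windows from RefSeq (GRCm38.p6) were matched for 6 of the 10 genes, with 10 windows in all of 250 bases before and 50 after a start. Lgr5, Rspo3, Tbx3 and Znrf3 had none. The windows were searched on both strands for the letters CTTTG followed by AA, AT, TA or TT, the core to which TCF and LEF proteins are known to bind. Of the 10 windows, 1 held such a match, beside 16.9% of the 32851 windows of all genes. It was CTTTGTA on the minus strand, 147 bases before the start at 131156294 inside Lef1. The bases before the starts of Glul (chr1:153899679-153899928), as the highest of the pericentral genes among the 10, of Axin2 (chr11:108920099-108920348), as the lowest of the Wnt targets among them, and of this inner Lef1 start (chr3:131156044-131156293) are shown, plus strand, 5′ to 3′, with the match in capitals.
Glul: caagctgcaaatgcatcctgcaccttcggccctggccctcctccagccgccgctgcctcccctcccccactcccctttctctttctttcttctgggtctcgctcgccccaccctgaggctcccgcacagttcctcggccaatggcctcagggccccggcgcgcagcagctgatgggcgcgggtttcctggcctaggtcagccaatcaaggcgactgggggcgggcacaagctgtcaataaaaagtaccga
Axin2: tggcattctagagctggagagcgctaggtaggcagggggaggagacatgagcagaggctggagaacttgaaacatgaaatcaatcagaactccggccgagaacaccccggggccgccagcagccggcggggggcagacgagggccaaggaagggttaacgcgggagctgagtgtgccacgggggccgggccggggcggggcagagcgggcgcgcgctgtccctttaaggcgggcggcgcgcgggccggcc
Lef1: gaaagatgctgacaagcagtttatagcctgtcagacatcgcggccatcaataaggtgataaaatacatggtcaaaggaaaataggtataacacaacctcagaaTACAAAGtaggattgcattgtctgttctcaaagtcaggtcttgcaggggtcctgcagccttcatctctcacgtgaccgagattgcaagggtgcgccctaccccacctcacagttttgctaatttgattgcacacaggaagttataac
The capitals in the Lef1 sequence read the match on the opposite strand. A match is a description of letters, and its lack in the other windows says only that the letters are not in these 300 bases.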

How the data were processed

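Whole-liver RNA was measured in 2 libraries of 1 group, with gene and transcript tables for each. Per the descriptions deposited with them, both were made on mm10 with annotation M4, and their column names are those RSEM writes. The sources used here give no aligner, quantifier, software version or strand setting. Expected counts, as deposited, are the authors' estimated counts of reads or fragments, with no scaling. The TPM columns, deposited by the authors as estimate and posterior mean, are abundances corrected for length and library total. The percent of a gene's abundance in each transcript was also deposited, and the shares used here were recomputed from TPM.

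From these values, 26248 rows with only a number as identifier (15 and 25 counts) and 97 rows of spike-ins were left out and TPM was rescaled to the remaining genes. GENCODE M21 on the same assembly named 42462 of 43346 genes. The 10 members and all lists were chosen with earlier results of these data known. Named genes were the members and, in each list, the lowest gene, the 2 highest and the gene of largest log2 ratio of TPM + 1 between libraries, and not all of these are printed. The limit for detection was 1 TPM in each of the libraries. Values are mean ± SD (n = 2). Ratios of replicate 2 to replicate 1 were set against a 2-fold limit and an exact 95% interval of expected counts. The rule of that interval was tested on simulated data for genes with at least 50 counts, not for fewer. Apart from set fold changes, the simulated counts varied by counting error only, so other spread between libraries was not covered. Where a gene had 0 counts, 3 counts of the library total served as the upper limit. Depth of 34039426 and 44200838 counts limits the genes with few counts, and intervals cover counting error only.

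Alternatives were other limits, folds and filters, pseudocounts of 0.1 and 1, posterior mean TPM, deposited TPM with spike-ins, expected counts, TPM without adult globins, spike-in scaling, the median of ratios from DESeq2 1.42.0, TMM from edgeR 4.0.16 and each library alone. The longest transcript as length, the ratio of Glul to Ctnnb1 and shares by expected counts were added after the data were seen. The scripts ran in R 4.3.3 and Python 3.11.15 (SciPy 1.17.1, pandas 2.3.3, NumPy 2.4.6), with plots from matplotlib 3.10.9.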

Additional observations from a re-analysis of the deposited data

How the results depend on the processing

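The number of members detected stayed within 1.5 times the reported 6 under every limit, unit and single library tried. More than 2-fold differences numbered 1 instead of 0 with no filter on low values, and intervals leaving out 1 numbered 4 instead of 0 with spike-in scaling. By expected counts without length correction, Lgr4 to Lgr5 was 4.83, Wnt2 to Wnt9b 16.1 and Glul to Cps1 1.22, while Rnf43 to Znrf3 turned to 0.996 and Glul to Ctnnb1 to 0.509. With the longest transcript as length these were 4.57 for Lgr4 to Lgr5, 1.47 for Rnf43 to Znrf3, 2.46 for Glul to Cps1 and 0.666 for Glul to Ctnnb1, which turned. With posterior mean TPM, Lgr4 to Lgr5 was 2.95, Rnf43 to Znrf3 2.17 and Rspo3 to the other R-spondins 2.61. Under the same estimate Axin1 to Axin2 was 19.0 instead of 47.3, Axin2 0.455 instead of 0.223 TPM, and the share of the leading Lgr5 form 53.6% instead of 81.8%. These scales differ only in the length or estimate applied to the same counts. Leaving out the 4 adult globin genes from the total raised 9 of the 10 levels by more than 1 SD, for example Glul to 184 TPM and Ctnnb1 to 118 TPM, and put Lgr5 at 1.21 and Lef1 at 1.56 TPM, over the limit of 1 TPM. Leaving out 1 library cannot be computed for counts that need both. No paired analysis was possible because the labels give 1 group.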
